A study of Mus musculus with 4 samples.

Results

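Divergent promoters are stretches of DNA from which a pair of protein-coding genes is read in opposite directions, with the 5' ends of the genes lying back to back. They were followed here in a map of acetylation of histone H3 at lysine 27 (H3K27ac) in mouse heart. A pair was taken when the 5' end of the minus-strand gene lay upstream of that of the plus-strand gene, at most 1 kb away, by the gene records of GENCODE M21 on mm10. A peak was a member when it lay within 1 kb of both 5' ends. The rule used positions alone, no measured height. It found 754 pairs, made of 1487 of 21938 nuclear protein-coding genes, and 925 member peaks among the 63061 peaks that the authors list as replicated between hearts. The member peaks cover 1230.88 kb of the genome, 27 of them serve more than 1 pair, and 21 genes stand in more than 1 pair. The mitochondrial genome was left out.

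The hearts came from female B6CASTF1/J mice, a cross of C57BL/6J with CAST/EiJ, at 2 months of age. All 4 libraries belong to this single group, with no other genotype, age, sex or treatment beside it. Biological replicate 1 was "pool H" and biological replicate 2 was "pool G", each made by pooling 2 heart samples and read in 2 technical libraries. Both pools carry the same donor identifier in the labels, so their spread may be technical. The deposited lists hold no read counts, so the depth behind each peak is unknown. Each peak has a fold from the authors, which is the height of the peak as a ratio, read as enrichment over control DNA. Whole heart was assayed, so a weak mark in all cells and a strong mark in few cells cannot be told apart.

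H3K27ac is laid down by histone acetyltransferases and sits on the nucleosomes that flank active promoters and enhancers. At an active start site the promoter DNA itself is kept free of nucleosomes, so the mark stands to either side of a gap. Divergent promoters of coding genes are known in mammals for CpG islands, for few TATA boxes, and for housekeeping genes of DNA repair, mitochondria and protein folding. The heart draws most of its energy from fatty acid oxidation in mitochondria, a pathway in which Hadha and Hadhb are a textbook case of a shared promoter. In the tissue check, 8 of 8 heart muscle markers, such as the sarcomere genes, and 5 of 5 markers of endothelium and fibroblasts had a peak within 1 kb of their 5' end. Of 7 markers of other tissues 0 had one, and of all protein-coding genes 53.3% had one. The peak of the endothelial marker Pecam1, in its pair with Milr1, had a fold of 3.32, and that pair had no member peak in replicate 1.

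The sequences between the 5' ends of 7 pairs are printed to show how little DNA such a promoter can hold, and because they take in the textbook examples, among them a pair with 1 of the widest peaks and a pair with 1 of the lowest folds. Each is the plus strand of GRCm38, the assembly of mm10, read 5' to 3' strictly between the ends of both genes, with the minus-strand gene to the left. Capitals mark the letters CCAAT (NF-Y), GGGCGG (SP1), CCGGAAG (ETS factors such as GABPA) and ATGGCGG (YY1) on either strand.
Hadha-Hadhb, chr5:30155163-30155247: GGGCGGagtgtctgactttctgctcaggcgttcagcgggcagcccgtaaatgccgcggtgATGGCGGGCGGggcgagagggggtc
Sdhd-Timm8b, chr9:50603813-50603909: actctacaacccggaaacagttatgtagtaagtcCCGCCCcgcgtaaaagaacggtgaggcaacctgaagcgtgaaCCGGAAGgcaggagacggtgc
Mrps12-Sars2, chr7:28741821-28741991: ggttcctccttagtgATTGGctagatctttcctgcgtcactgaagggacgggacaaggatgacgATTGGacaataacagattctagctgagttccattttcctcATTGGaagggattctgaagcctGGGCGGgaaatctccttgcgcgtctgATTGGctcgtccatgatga
Brca1-Nbr1, chr11:101551956-101552148: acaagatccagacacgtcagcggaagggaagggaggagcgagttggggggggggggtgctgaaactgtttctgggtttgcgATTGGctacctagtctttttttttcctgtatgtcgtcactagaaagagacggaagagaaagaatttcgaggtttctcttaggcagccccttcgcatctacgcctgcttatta
Wrap53-Trp53, chr11:69580256-69580358: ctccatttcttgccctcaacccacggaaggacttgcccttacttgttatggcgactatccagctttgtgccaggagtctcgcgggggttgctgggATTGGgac
Recql4-Lrrc14, chr15:76710549-76710622: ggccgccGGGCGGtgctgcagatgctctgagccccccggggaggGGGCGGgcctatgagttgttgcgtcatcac
Col4a4-Col4a3, chr1:82586850-82586920: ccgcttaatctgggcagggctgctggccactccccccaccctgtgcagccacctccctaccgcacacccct
The stretch of Hadha and Hadhb, the genes for both subunits of the mitochondrial trifunctional protein, is 85 bp long and holds 2 GGGCGG and 1 ATGGCGG, of which 1 GGGCGG shares letters with ATGGCGG. That of Mrps12 and Sars2, a mitochondrial ribosome protein and the mitochondrial seryl-tRNA synthetase, holds 4 CCAAT and 1 GGGCGG in 171 bp. The stretch of Col4a4 and Col4a3, whose fold is among the 10 lowest, is 71 bp long and holds none of the 4.

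Nearly all divergent promoters carried the mark in heart. Of 754 pairs, 703 had a member peak, which is 93.2% (95% exact binomial interval 91.2 to 94.9). Of all protein-coding genes, 53.3% had a peak within 1 kb of their 5' end, and of the genes in no pair 50.4%. Counted by gene, 1388 of the 1487 genes in pairs had a peak, or 93.3%. A member peak counts for both genes of its pair, whichever of them it belongs to, while a gene in no pair is counted on its own 5' end. The shares of pairs and of other genes are therefore not like for like. Pairs whose 5' ends overlap head to head, which the rule leaves out, were close to this level, with a peak at 804 of 895 genes (89.8%). Coding ends with a divergent long noncoding RNA had a peak in 74.5%, and the remaining coding ends in 47.6%.

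Base composition went along with part of this difference. A promoter was called CpG-rich when the 500 bp around the midpoint of the pair, or around the 5' end of other genes, had at least 55% GC and an observed over expected CpG ratio of at least 0.6. Of the 557 CpG-rich pairs 540 were acetylated (96.9%), against 81.6% of the other CpG-rich ends with a single coding gene. Of the 197 pairs that were not CpG-rich 163 were acetylated (82.7%), against 25.6% of the other ends of that kind. The gap between pairs and these single coding ends was thus wider outside CpG-rich DNA. The CpG content within that class was not alike, however. Its median CpG ratio was 0.643 at acetylated pairs and 0.321 at pairs without a peak, against 0.436 and 0.194 at single coding ends. Overlapping head-to-head ends were near the pairs in both classes, with 93.8% of CpG-rich ends and 79.9% of the rest. How much further details of sequence or of annotation contribute was not tested.

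**Figure D1:**
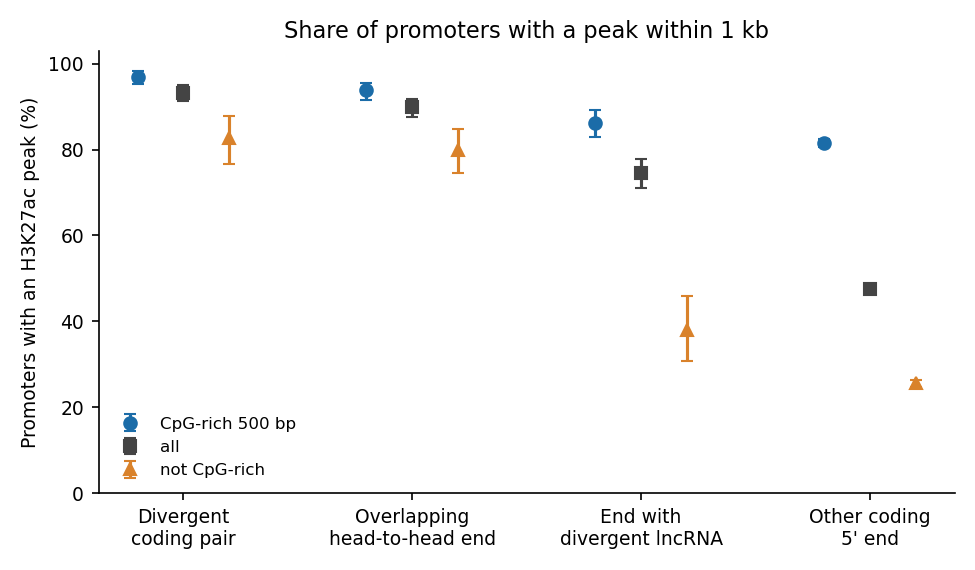
Share of promoters with an H3K27ac peak within 1 kb (percent, vertical axis) for divergent coding pairs, overlapping head-to-head ends, ends with a divergent lncRNA and other coding 5' ends, with circles for CpG-rich promoters, squares for all and triangles for the rest. Bars are 95% exact binomial intervals over promoters. Divergent pairs stand at 93.2% overall and at 82.7% outside CpG-rich DNA, where other coding ends stand at 25.6%. The CpG content within that class differs between pairs and other ends.

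The hearts of both pools gave nearly the same set of pairs. The list of replicate 1 held a member peak for 697 pairs (92.4%), where 51.6% of all coding genes and 48.7% of those in no pair had a peak, and the list of replicate 2 for 704 pairs (93.4%), where 54.4% and 51.5% did. The pooled list held one for 702 pairs (93.1%), with 53.5% and 50.6%. Of the 703 pairs with a replicated peak, 695 had a member peak in both single lists, 2 in that of replicate 1 alone and 6 in that of replicate 2 alone. Of the 51 pairs without a replicated peak, 0 had one in replicate 1, 3 had one in replicate 2 and 47 had none in any of the 4 lists. Peak by peak, 888 of the 925 member peaks overlapped a peak in both single lists (96.0%, interval 94.5 to 97.2), against 73.0% of all 63061 peaks. Peaks at a single coding 5' end did so in 91.4%.

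Pairs kept much the same order of height between pools, while widths shifted. Across the 695 pairs, the log2 fold of the strongest peak in the lists of replicates 1 and 2 had a Pearson correlation of 0.920, given as a description across pairs that share both libraries. The strongest peak had a median width of 1132 bp in replicate 1 and 1597 bp in replicate 2, and was wider in replicate 2 in 648 pairs. The same shift ran through all peaks, with medians of 664 bp and 930 bp. The widths of the widest peaks below are therefore also given in the single lists.

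**Figure D2:**
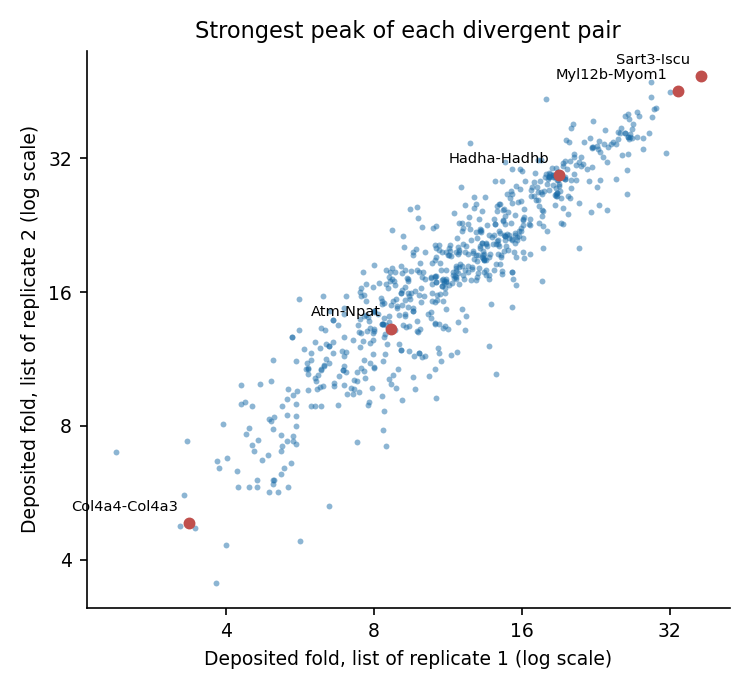
Deposited fold of the strongest peak of each divergent pair in the list of replicate 1 (horizontal axis, log scale) and replicate 2 (vertical axis, log scale), 1 point for each of 695 pairs, with 5 named pairs in red. The points follow 1 band (r = 0.920 on the log2 scale), and Col4a4-Col4a3 lies at its low end, Sart3-Iscu at its high end.

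In height the member peaks stood a little above peaks at a single coding end. Their median fold was 12.3 (quartiles 8.25 to 17.5, range 1.75 to 42.6), against 10.5 (quartiles 5.98 to 16.3) at the 11031 peaks of a single coding end and 4.55 over all peaks. The ratio of the medians of member peaks and single-end peaks was 1.17. Peaks at a coding end with a divergent lncRNA were near the member peaks, with a median of 11.9. Peaks that touch several coding ends in other arrangements were higher still, with a median of 14.4. Per promoter, the strongest peak had a median fold of 14.3 at acetylated pairs and of 12.4 at other acetylated coding ends. In CpG-rich DNA these medians were 14.6 and 13.4, and elsewhere 13.8 and 10.2. Acetylated ends with a divergent lncRNA had a median of 13.5 and overlapping head-to-head ends 16.5, so a greater height was not particular to divergent pairs. Of the 703 acetylated pairs, 163 had a fold over 20 and 21 a fold under 5.

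Peaks at divergent promoters ended sooner inside the genes than peaks at other coding ends. For each of the 1406 ends of acetylated pairs, a peak covered the position 1 kb into the gene in 24.5% (exact interval 22.3 to 26.9), against 49.2% (48.2 to 50.2) of 8986 other acetylated coding ends. Both ends of a pair often lie under the same peak, and a gene in more than 1 pair is counted again. The interval treats all ends as separate, which they are not. At 2 kb the shares were 6.40% and 20.8%, and at 3 kb 4.55% and 13.7%. At 500 bp they were closer, at 77.7% and 84.2%. Outside the gene the order turned, with 39.0% against 20.5% covered 1 kb upstream, where the partner gene of a pair lies. Seen from the midpoint of a pair, cover at 1 kb was 28.4% toward the minus-strand gene and 33.9% toward the plus-strand gene. The mark was thus spread to both sides. At single coding ends it lay mainly downstream, with 75.5% of summits there. Ends with a divergent lncRNA stood between in upstream cover, with 29.0% covered at 1 kb, and 59.3% of their summits lay downstream. A spread to both sides was therefore not particular to coding pairs.

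The shorter reach into the gene was found in each pool and in each class of gene examined. At 1 kb it was 20.9% against 44.7% in the list of replicate 1, and 32.0% against 55.3% in that of replicate 2. In CpG-rich promoters of the replicated list it was 24.5% against 47.3%, and in the rest 24.5% against 53.2%. Where every annotated transcript of the gene starts within 500 bp of the 5' end it was 20.2% against 43.1%. Among genes of at least 10 kb it was 25.3% against 50.9%. The classes by list, transcripts and gene length were added after the data were seen.

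**Figure D3:**
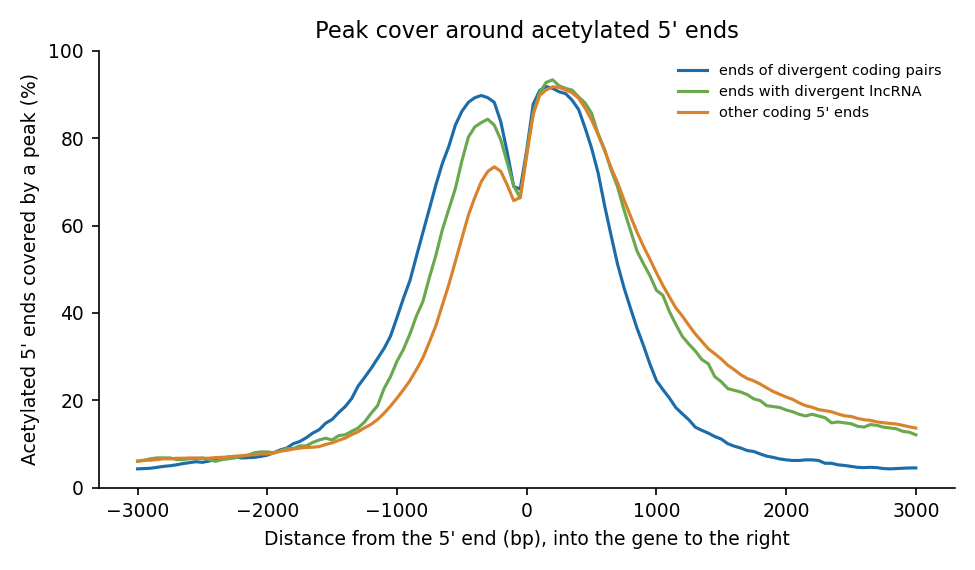
Share of acetylated 5' ends covered by a peak (percent, vertical axis) by distance from the 5' end in bp (horizontal axis, into the gene to the right) for ends of divergent coding pairs in blue, ends with a divergent lncRNA in green and other coding ends in orange. The blue line falls to 24.5% at 1000 bp inside the gene, where the orange line is at 49.2%, and stands above it upstream.

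Between the 5' ends the mark often dipped, as it did just upstream of other coding ends. A peak covered the midpoint in 65.7% of acetylated pairs. Other acetylated coding ends were covered in 65.7% at 100 bp upstream, 73.4% at 250 bp upstream and 91.8% at 200 bp into the gene. Of acetylated pairs 34.1% had 2 or more member peaks. Ends with a divergent lncRNA had 2 or more peaks within 1 kb in 34.6%, and other ends in 26.8%. Of the 703 acetylated pairs, 407 had 1 peak across both 5' ends (57.9%, interval 54.1 to 61.6). A further 184 had a peak on each side and no peak at the midpoint (26.2%, 23.0 to 29.6), and 57 had peaks on 1 side of the midpoint alone. In the rest a peak covered the midpoint but not both ends. The gap had a median length of 157 bp (quartiles 119 to 211, range 77 to 950). In 53 pairs it lay strictly between the 5' ends, and in 56 it covered both. The split into 1 or 2 peaks was not firm, since of the 407 undivided pairs 344 were undivided in replicate 1 and 407 in replicate 2, and of the 184 divided pairs 168 were divided in replicate 1 and 115 in replicate 2.

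The dip went with the spacing of the genes. With 5' ends up to 100 bp apart, 96.5% of 312 pairs were acetylated, and the midpoint was covered in 79.1% of them. Over 100 and up to 300 bp, 283 of 306 were acetylated (92.5%), the midpoint was covered in 49.1%, and 118 pairs (41.7%) were divided. Over 300 and up to 500 bp, 61 of 66 were acetylated (92.4%) with the midpoint covered in 70.5%. Beyond, up to 1000 bp, it was 58 of 70 (82.9%) with 72.4%, and 6 pairs were divided. The middle of a pair was thus least often covered at a spacing over 100 and up to 300 bp.

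**Figure D4:**
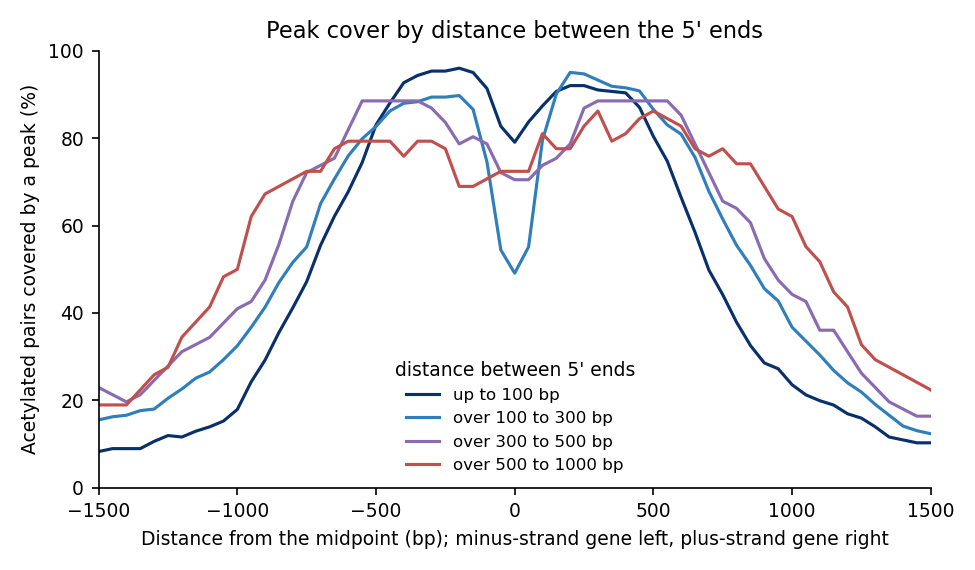
Share of acetylated pairs covered by a peak (percent, vertical axis) by distance from the midpoint in bp (horizontal axis, minus-strand gene to the left), in 4 classes of distance between the 5' ends. At the midpoint the line for over 100 to 300 bp falls to 49.1%, and that for up to 100 bp to 79.1%.

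The summit of the strongest peak mostly lay inside a gene. It lay on the minus-strand gene in 326 pairs, on the plus-strand gene in 319 and between the ends in 58, about equally often on either strand. The position went with the room between the ends, since the summit lay between them in 0 pairs up to 100 bp apart, in 21 of 283 over 100 and up to 300 bp, in 20 of 61 over 300 and up to 500 bp, and in 17 of 58 beyond. In the divided pairs the peak on the plus side was stronger in 100 and that on the minus side in 84. The stronger side exceeded the weaker by a median ratio of 1.54 (quartiles 1.24 to 2.08), and 51 of the 184 pairs had a ratio over 2. The log2 folds of both sides had a Pearson correlation of 0.245 across the 184 pairs.

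Single pairs show how unequal the sides could be. Tom1l2-Drc3, with 5' ends 424 bp apart, had a fold of 23.8 over Tom1l2, an endosomal trafficking gene, and of 3.98 over Drc3, a gene of the dynein regulatory complex of cilia. Srgap2-Fam72a had 17.5 over Srgap2, a regulator of small GTPases, and 4.16 over Fam72a. Wrn-Purg had 18.0 in the peak on the side of Wrn, the Werner syndrome DNA helicase, whose summit lay between the 5' ends, and 5.64 on the side of Purg. Plag1-Chchd7 had 6.65 over Plag1, a growth-related zinc finger factor best known from embryos, and 18.3 over Chchd7. In each of these 4 the ratio of the sides was over 2. The side folds are those of the replicated list alone. In replicates 1 and 2 the strongest peak of Tom1l2-Drc3 was 1.61 kb and 3.35 kb wide, and that of Srgap2-Fam72a 1.81 kb and 3.40 kb. That of Wrn-Purg was 0.956 kb and 0.991 kb wide, and that of Plag1-Chchd7 0.977 kb and 1.05 kb. Atm-Npat and Tbc1d10b-Mylpf were even. Atm, the kinase that signals DNA breaks, and Npat, a coactivator of histone gene transcription, both had 10.4 across a gap of 177 bp. Tbc1d10b and Mylpf, a fast skeletal muscle myosin light chain, had 11.3 and 11.2 across 406 bp.

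Where 1 peak spanned both ends, it reached a median of 948 bp beyond the end on the longer side and 591 bp on the shorter, and in 39 of 407 pairs the longer reach was at least 4 times the shorter. The widest member belonged to Myl12b-Myom1, 425 bp apart on chromosome 17. Its peak, chr17:70992566-71004281, was 11.7 kb wide with a fold of 39.1, and reached 9.64 kb into Myl12b, a myosin regulatory light chain, and 1.65 kb into Myom1, which encodes the M-band protein myomesin. It was 11.6 kb in replicate 1 and 12.5 kb in replicate 2, so its width held in both pools. Hadha-Hadhb followed with a peak of 11.5 kb and a fold of 25.1, chr5:30151206-30162699, which ran 3.96 kb into Hadha and 7.45 kb into Hadhb. In the single lists it was 7.00 kb and 12.0 kb wide. The next was Pcdh12-Rnf14 with 8.68 kb, of which 7.73 kb lay in Pcdh12, an endothelial protocadherin. That peak was 8.98 kb wide in replicate 2 and 1.45 kb in replicate 1. Its fold was 14.3, below the 32.4 at another annotated start of Rnf14, 12098 bp away. Another start of Myom1, 16888 bp away, had a fold of 24.5, below that of the Myl12b-Myom1 peak.

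Several further wide peaks reached further into 1 gene than into the other, by unequal amounts. Sncg-Mmrn2 had 6.38 kb, with 0.834 kb in Sncg and 4.87 kb in Mmrn2, a matrix protein of endothelium, and was 4.12 kb wide in replicate 1 and 6.82 kb in replicate 2. Tmem135-Fzd4 had 6.26 kb, with 1.75 kb in Tmem135 and 4.37 kb in Fzd4, the receptor for the vascular ligand Norrin. It was 3.16 kb wide in replicate 1 and 6.24 kb in replicate 2. Its fold was 24.3, and another annotated start of Tmem135, 65435 bp away, had 23.1. Mrps18b-Ppp1r10 had 5.60 kb at a fold of 38.0, with 0.664 kb in Mrps18b and 4.89 kb in Ppp1r10, a nuclear partner of protein phosphatase 1, and was 4.64 kb and 5.86 kb wide in replicates 1 and 2. Odf3l1-Cspg4 had 5.11 kb at a fold of 7.39, with 0.587 kb in Odf3l1 and 4.17 kb in Cspg4, the NG2 proteoglycan of pericytes. It was 1.85 kb wide in replicate 1 and 5.13 kb in replicate 2. Tshz1-Zadh2 (5.41 kb, with 1.98 kb in Tshz1 and 3.08 kb in Zadh2) and Cd3eap-Ppp1r13l (5.38 kb) were also among the 10 widest, and both were over 5 kb wide in each single list.

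By height, Sart3-Iscu led. Its peak over Sart3, a factor of spliceosome recycling, had a fold of 42.6 (37.0 in replicate 1 and 48.9 in replicate 2), and that over Iscu, the scaffold on which iron-sulfur clusters are built, 10.1, with 330 bp between them. After it and Myl12b-Myom1 came Mrps18b-Ppp1r10, then Sqstm1-Mgat4b with 37.4. Sqstm1 encodes the autophagy receptor p62. St13-Xpnpep3 had 36.1, and joins a cochaperone of Hsp70 to a mitochondrial aminopeptidase. Inca1-Kif1c (35.4), Ccni-2010109A12Rik (35.1), Zfp661-Mrps5 (34.3), Dcun1d2-Tmco3 (33.2) and Tecr-Dnajb1 (32.8) complete the 10 highest. In Tecr-Dnajb1 the fold of 32.8 lay over Dnajb1, a heat shock protein of the Hsp40 family, and 15.3 over Tecr, across a gap of 147 bp.

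Several groups of housekeeping genes stood in pairs more often than coding genes in general. Of all coding genes 6.78% stood in a pair. DNA repair and replication genes did so in 31 of 89 (34.8%), mitochondrial ribosome proteins in 18 of 78 (23.1%) and respiratory chain genes in 19 of 84 (22.6%). Chaperones stood in pairs in 7 of 41 (17.1%), proteasome genes in 8 of 48 (16.7%), aminoacyl-tRNA synthetases in 5 of 34 (14.7%) and cytosolic ribosome proteins in 8 of 80 (10%). Zinc finger genes were near the level of all genes, with 20 of 365 (5.48%). Circadian genes (0 of 18), class I antigen presentation (0 of 11) and olfactory receptors (0 of 1135) had none in a pair. The lists were chosen with earlier results of these data known, and are described without a test.

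**Figure D5:**
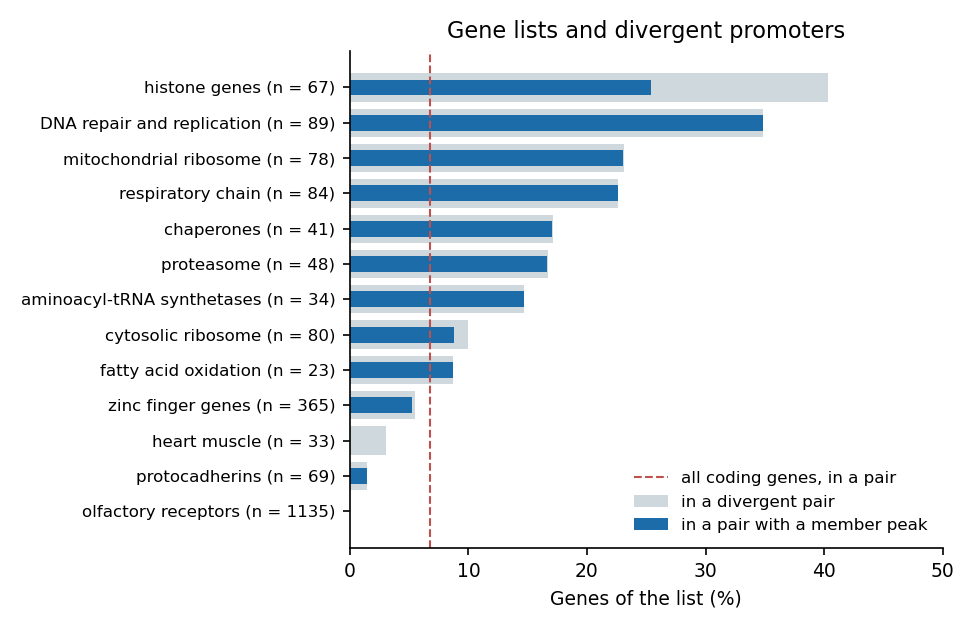
Share of the genes of each list (percent, horizontal axis) that stand in a divergent pair, in grey, and in a pair with a member peak, in blue. The dashed line is the 6.78% of all coding genes that stand in a pair. In most lists both bars have the same length, and in histone genes (40.3%) the blue bar is shorter.

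Respiratory chain genes in pairs had a high fold. All 19 had a member peak, where 93.2% of all pairs did, with a median fold of 19.3 (range 6.92 to 30.5), against 14.3 over all acetylated pairs. The highest were Fam126b-Ndufb3 with 30.5 and Tatdn1-Ndufb9 with 24.0, which hold subunits of complex I, and Atp5c1-Kin with 27.1 and Atp5h-Kctd2 with 25.4, which hold subunits of ATP synthase. Sdhd-Timm8b, a membrane anchor of complex II beside a mitochondrial import chaperone, had 17.0 over 3.64 kb, of which 2.80 kb lay in Sdhd. The peak was 1.94 kb wide in replicate 1 and 3.08 kb in replicate 2. Outside pairs, 59 of 65 respiratory chain genes had a peak, where 50.4% of all coding genes in no pair did. Among 23 genes of fatty acid oxidation Hadha and Hadhb were the pair members, and the first of the printed stretches carries them.

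Of the pairs with genes that make, fold or degrade proteins, 1 had no member peak, where 93.2% of all pairs had one. Such genes were mostly acetylated outside pairs too, with 59 of 60 for the mitochondrial ribosome, 69 of 72 for the cytosolic ribosome, 34 of 34 chaperones, 28 of 29 synthetases and 35 of 40 proteasome genes. Of all coding genes in no pair 50.4% had a peak. The 18 mitochondrial ribosome genes in pairs had a median fold of 15.5 (range 4.74 to 38.0), headed by Mrps18b-Ppp1r10 and Zfp661-Mrps5, and followed by Mrpl54-Apba3 with 23.8 and Ncapd2-Mrpl51 with 22.8. Of 8 cytosolic ribosome genes in pairs 7 were acetylated, among them Zwilch-Rpl4 (24.1), Iqcg-Rpl35a (22.4), Rps27-Rab13 (20.5) and Rps28-Ndufa7 (18.4), whose 5' ends are 10 bp apart. The exception was Rnf151-Rps2, where the peak of Rps2 lay at another annotated start 1947 bp away with a fold of 12.4. The 7 chaperone genes in pairs had a median of 19.0 (range 16.1 to 32.8). Dnajb1 was the highest, followed by Hsp90b1-Ttc41 with 24.6, the endoplasmic Hsp90, and Hspa1a-Hspa1l with 20.9, a pair of Hsp70 genes. Near-identical Hsp70 copies may share reads, so the values of Hspa1a and Hspa1l are uncertain. Tsacc-Cct3, with a subunit of the cytosolic chaperonin, had 19.0 over Tsacc and 15.0 over Cct3. The 5 synthetase genes had a median of 11.9, with Mrps12-Sars2 (21.5) first, then S100pbp-Yars (16.4), Kars-Terf2ip (11.9) and Orc3-Rars2 (10.2). The 8 proteasome genes had 15.4, from 8.15 to 29.9, and the highest was Cep76-Psmg2, whose Psmg2 is an assembly chaperone of the proteasome. Psme2-Rnf31 (21.7), Psma7-Ss18l1 (18.5) and Psmb1-Tbp (17.3) followed. Gart-Son, which joins a trifunctional enzyme of purine synthesis to a splicing cofactor, had 27.7.

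Genes of DNA repair and replication had a fold near that of other pairs. All 32 pairs of the 31 genes had a member peak, where 93.2% of all pairs did. Outside pairs 55 of 58 genes of the list had a peak, where 50.4% of all coding genes in no pair did. The pairs had a median fold of 12.6 (range 5.31 to 28.4), against 14.3 over all acetylated pairs. The highest was Rad17-Taf9 with 28.4, a checkpoint clamp loader beside a subunit of the general transcription factor TFIID. Brca1-Nbr1, 194 bp apart, followed with 27.4 in a peak of 1.91 kb, chr11:101552031-101553935, which begins between the 5' ends and lies over Nbr1, an autophagy receptor. The 5' end of Brca1, a homologous recombination gene, was itself not covered. Tsc2-Nthl1 had 25.5 and Dclre1a-Nhlrc2 24.2. Wrap53-Trp53, 104 bp apart, had 13.7 in a peak of 2.67 kb that reached 0.758 kb into Wrap53, a telomerase cofactor, and 1.81 kb into Trp53. Mcm4-Prkdc, a replicative helicase subunit and the catalytic subunit of the DNA-dependent kinase, had 9.11 in 2 peaks. Recql4-Lrrc14 had 8.63 in a peak of 0.678 kb that began between the 5' ends and left that of the helicase gene Recql4 uncovered. Several of these genes, the replicative helicase among them, are known to act mainly in dividing cells, which are few in the adult heart.

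Of 22 pairs of shared promoters known from the literature of mammals, 9 met the rule. All 9 were acetylated, where 93.2% of all pairs were. In 10 of the others, among them Col4a1-Col4a2 and Hspd1-Hspe1, the annotated 5' ends overlap by up to 1 kb, so that the rule leaves them out, and in Col4a5-Col4a6 the ends are 1309 bp apart. Of the 9, Col4a4-Col4a3 was the weakest. These genes encode the collagen chains of the glomerular basement membrane of the kidney, and their 5' ends, 72 bp apart, lay under a peak of 1.80 kb with a fold of 3.99 (3.35 over 1.58 kb in replicate 1 and 4.84 over 1.92 kb in replicate 2). The peak was wider than the median member peak of 1047 bp but low, where 505 of the 703 acetylated pairs had a fold above 10.5, the median of peaks at a single coding end.

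Some other weak pairs had a stronger peak within 1 kb of another annotated start. Pecam1-Milr1 had a fold of 3.32, while another annotated start of Pecam1, an endothelial adhesion gene, 35363 bp away, had 20.6. Bend6-Dst had 3.60, while a start of Dst, the cytolinker dystonin, 103588 bp away, had 14.9. Kctd19-Lrrc36 had 3.91, against 10.9 at another start of Lrrc36. Peg3-Usp29, an imprinted pair read from the paternal chromosome, had a member peak of 3.66 in the replicated list and none in replicate 1. Another peak, with a fold of 11.3, lay within 1 kb of a start of Peg3 that is 10 bp from its gene's 5' end. That peak was not on the start itself and was no member, since it lay over 1 kb from the 5' end of Usp29. Lrrc74b-P2rx6 (2.84), Hist1h2an-Hist1h2bp (2.98), Atp7b-Alg11 (3.31), Fam229b-Tube1 (3.60) and Tcf19-Cchcr1 (3.89) complete the 10 lowest. In all, 46 of the 703 acetylated pairs had a stronger peak, not a member, within 1 kb of an annotated start of the same genes.

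The 51 pairs without a member peak were less often CpG-rich than the acetylated pairs. CpG-rich sequence was found at 17 of 51 (33.3%), against 76.8% of acetylated pairs, with a median GC content of 56.4% against 62.8% and a median CpG ratio of 0.552 against 0.844. For 19 of them a peak lay within 1 kb of an annotated start of 1 of the genes, and 32 had none at any start. The heart muscle list gave its single divergent gene here. Klc3-Ckm, 672 bp apart, had no member peak, while the annotated start of Ckm 6249 bp away, the muscle creatine kinase gene, had a fold of 15.1. In Smyd1-Cd8b1 likewise, a start of Smyd1, a muscle methyltransferase gene, 59952 bp from the shared one, had 14.3. Smyd1-Cd8b1 and the next pairs were chosen after their values were seen. Duox2-Duoxa2, an oxidase of the thyroid with its maturation factor, and Kirrel2-Nphs1, genes of kidney podocytes, had no peak at any start. Of the other 32 heart muscle genes 29 had a peak, where 50.4% of all coding genes in no pair did.

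Histone genes stood in pairs more often than the genes of any other list here, and a smaller share of their pairs was acetylated than in any list but heart muscle with its single pair. Of 67 genes 27 stood in a pair (40.3%). Of the 14 pairs 9 had a member peak, where 93.2% of all pairs did. The 9 had a median fold of 10.9 (range 2.98 to 24.1). In 13 of the 14 pairs both genes are histone genes. Bola1-Hist2h2ab and Hist2h2ac-Hist2h2be lay under the same peak of 3.76 kb with a fold of 24.1, and Hist1h2ac-Hist1h2bc (14.0) and Hist1h2ae-Hist1h2bg (12.3) had 3 member peaks each. Hist1h2ag-Hist1h2bj, Hist1h2ah-Hist1h2bk, Hist1h2ap-Hist1h2br and Hist1h2ba-Hist1h2aa had none, the first 2 of them with a peak in replicate 2 alone. Near-identical histone copies can lose reads that map to several places, so both the peaks and their absence are uncertain. Among zinc finger genes 17 of 18 pairs were acetylated (median 13.7), where 93.2% of all pairs were. Zfp91-Lpxn (27.5), Dedd2-Zfp526 (24.6) and Zfp597-Gm20695 (22.9) came after Zfp661-Mrps5, and Zfp558-Mbd3l1 had no member peak.

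By chromosome, the acetylated share was lowest on X, with 13 of 20 pairs, and on chromosome 13, with 28 of 37. Of all pairs 93.2% were acetylated. The chromosome 13 pairs without a peak include the Hist1 pairs named above, where the absence of a peak is uncertain. The share of all coding genes with a peak was not counted by chromosome, so these shares may not be particular to pairs. All other chromosomes had at least 87.5%.

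The letters of some factors stood more often in acetylated divergent promoters than at acetylated single coding ends, as counted in the 500 bp windows on both strands. CCGGAAG, the ETS motif, was in 35.4% of pairs against 20.3% of other ends, and in CpG-rich windows alone in 40.6% against 24.1%. It was in 30.8% at overlapping head-to-head ends and 28.2% at ends with a divergent lncRNA. ATGGCGG, of YY1, was in 21.8% against 14.4%, and CCAAT, of NF-Y, in 52.8% against 44.6%. GGGCGG, of SP1, was in 80.2% against 73.9%, but in CpG-rich windows in 86.1% against 88.3%. Ends with a divergent lncRNA held GGGCGG in 86.9% and overlapping head-to-head ends in 69.9%. TATAAA was in 6.40% against 9.70%. The palindrome of NRF1 was rare, in 3.70% against 2.23%. AGATAA, of GATA factors, was in 7.82% against 8.90%. The MEF2 consensus was in 0 of 703 pairs, against 0.612% of other ends. A count of 0 allows a share of up to 0.427% (3 counts of the total), or 0.523% by the exact interval. In CpG-rich windows the MEF2 consensus was in 0 of 540 pairs (exact upper limit 0.681%), against 0.429%, so a lower share in pairs is not shown there. In the 51 pairs without a peak CCAAT stood in 30 (58.8%) and GGGCGG in 26 (51.0%). CCGGAAG stood in 4 of them (7.84%, exact interval 2.18 to 18.9) and ATGGCGG in 1 (1.96%, 0.0496 to 10.4). The MEF2 consensus stood in 2 (3.92%, 0.478 to 13.5). The last 3 counts are small and their intervals wide. Over all 21205 promoter windows of this length, acetylated or not, CCGGAAG was in 13.9%, ATGGCGG in 9.34%, CCAAT in 48.6%, GGGCGG in 51.7%, TATAAA in 16.8%, AGATAA in 14.8%, the NRF1 palindrome in 1.31% and the MEF2 consensus in 0.509%. The window of a pair holds the upstream side of both genes, that of another end 1 upstream side and the start of the gene. These are matches of letters, ATGGCGG and GGGCGG can share bases, and no factor's binding was measured.

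The median length of distal acetylation around divergent promoters was below that around other ends, with broad overlap of the quartiles. Peaks over 2.5 kb from any start covered a median of 0.535 kb (quartiles 0 to 2.13) of the 50 kb to either side of acetylated pairs, against 0.973 kb (0 to 3.29) for other acetylated coding ends and 0.886 kb for ends with a divergent lncRNA. Overlapping head-to-head ends were at 0.501 kb. The number of genes nearby, which sets how much of this window lies far from any start, was not examined.

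At the limit of the rule, acetylated pairs and pairs without a peak lay on either side. Among the 5 widest spaced pairs inside 1 kb, Btf3l4-Txndc12 (987 bp) had a fold of 20.1, Zfyve26-Rad51b (978 bp) 7.09 and Smim7-Tmem38a (967 bp) 27.2. Asphd1-Sez6l2 (981 bp) had no member peak. A peak with a fold of 3.51 lay within 1 kb of the 5' end of Sez6l2, but not of that of Asphd1. Of the 5 just outside, Gpr108-Trip10 (1009 bp) had 20.9, Sgsm2-Tsr1 (1011 bp) 7.33, Dirc2-Hspbap1 (1019 bp) 12.9 and Ppt2-Prrt1 (1023 bp) 18.9, and Serpina7-4930513O06Rik (1007 bp) had no peak near both ends.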

How the data were processed

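H3K27ac was mapped by the authors by chromatin immunoprecipitation and sequencing in 4 heart libraries, and the deposited files used here are 4 peak lists on mm10, per the labels and the text files deposited beside the libraries. 1 list holds replicated peaks (63061), 1 holds pooled pseudoreplicated peaks (63494), and 1 each holds peaks of biological replicate 1 (55831) and 2 (61333). Technical replicates were joined before peaks were called, so no list holds a value per library. Each deposited peak has a display score (not used), a fold (a ratio), −log10 p and −log10 q values, and a summit distance in bp, all set by the authors. Aligner and peak caller: not given in the sources used here. Depth is unknown, so every interval covers counting only.

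Genes came from GENCODE M21 and sequence from GRCm38, whose chromosome lengths hold all peaks. Folds were compared within a list only. An overlap of 1 bp or more counted as a match between lists. With 1 list per replicate no test between groups was possible, and results are given as counts, medians and shares with 95% exact binomial or order-statistic intervals, computed with Python 3.11.15, numpy 2.4.6, scipy 1.17.1 and pyfaidx 0.9.0.4. The search for pairs and members was tested on simulated ends and peaks, and recovered 99 of 99 planted pairs and 48 of 48 planted member peaks. The members and gene lists were chosen with earlier results of these data known. Named pairs are the 10 highest and 10 lowest by fold, the 10 widest, up to 4 with the highest fold and up to 4 without a peak in each list, the known pairs, up to 10 divided pairs by spacing, and the 5 nearest the limit on each side. Reads of a hybrid were placed on mm10. Whether CAST/EiJ variants altered peaks was not tested. Some pairs and 1 sequence chosen this way are not reported here.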

Additional observations from a re-analysis of the deposited data

How the results depend on the processing

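The share of pairs with a peak was 92.4 to 93.4% and the number of member peaks 851 to 958 when either biological replicate was left out, against 93.2% and 925. Without 1 replicate the median width of member peaks ranged from 876 to 1392 bp (1047 bp with both), the share of acetylated pairs with 1 peak over both 5' ends from 49.6 to 71.6% (57.9%), and the ratio of median fold of member peaks over single-end peaks from 1.10 to 1.21 (1.17). The lower value of width, share and ratio came without replicate 2. Requiring a peak to overlap the stretch between the 5' ends gave 81.8% of pairs with a peak, a width of 1325 bp, a ratio of 1.05, 97.6% of members met in both lists and 66.0% with 1 peak over both ends. Taking the ends of any coding transcript (1096 pairs) gave 1162.5 bp, a ratio of 1.32 and 63.4%. When peaks had to overlap by 50% of each, 77.6% of members were met in both lists, against 96.0%. The cause of these shifts was not tested. Of 46 alternative values 32 stayed within the interval or limit of the value reported and 14 moved, and in each of the alternatives that give it the ratio of fold stayed above 1. No paired analysis was possible because the samples form 1 group and no test was made. Depth is unknown, so what it limits cannot be stated.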
